A study of Homo sapiens with 6 samples.

Results

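Peaks of the histone variant H3.3 that lay inside protein-coding genes and carried acetylated lysine 16 of histone H4 (H4K16ac), but none of the other signals mapped in the same cells, formed a set of 6589 sites out of 72287 H3.3 peaks on chromosomes 1 to 22 and X. A site was an H3.3 peak of at most 2000 bp, at least 5 Mb from both chromosome ends, inside a protein-coding gene and over 1 kb from both ends of every such gene. It overlapped an H4K16ac peak by at least 1 bp and no peak of H2AZ CST, H2AZ Abcam or H3K79me2. The width and position conditions alone left 20959 H3.3 peaks, called eligible intragenic peaks below, and the sites were 31.4% of them (95% exact binomial interval 30.8 to 32.1). The sites were thus selected on peak calls of all 5 lists, and those overlaps are a description with no test. "Without other signals" means that no peak was called, and 18.1% of the sites had a peak of one of the 3 other lists within 1 kb.

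All libraries came from unperturbed HEK293T cells, an established line derived from human embryonic kidney. Antibodies to H2A.Z (1 from CST and 1 from Abcam), H3.3 (EMD/Millipore), H4K16ac (CST) and H3K79me2 (CST) each had 1 library, and an input library was not analysed here. Every group was therefore a set of peaks within the same 5 libraries, with no replicate spread and no test between samples. Fold enrichment and −log10 q are the authors' values for each peak, and intervals cover counting error only. The read depth of the libraries is unknown here, so a peak that is missing from a list may lie below its detection limit.

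H3.3 is the form of histone H3 that is assembled into chromatin outside DNA replication, by chaperones such as HIRA and DAXX with ATRX, and it is found at active promoters, enhancers and transcribed genes. H4K16ac is written mainly by the acetyltransferase KAT8 and is known for weakening contacts between nucleosomes. H2A.Z is a variant best known from nucleosomes beside transcription start sites, and H3K79me2 is written by DOT1L, mostly in the upstream part of transcribed genes.

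A total of 46 sites (0.698%) held a transcript start listed in the RefSeq promoter table (GRCh38.p14), an internal start of the host gene or the start of a long noncoding RNA (lncRNA). The share was similar, 0.763% (0.522 to 1.08), for eligible H3.3 peaks that overlapped no other list. It was 1.55% for those with H4K16ac and H3K79me2 but no H2AZ, and 21.4% for those with all 5 lists. The promoter table is the only source here for the bases under a site outside miRNA hairpins. It gave 47 starts in these sites, 30 of protein-coding genes and 17 of lncRNAs. All 30 protein-coding starts belonged to a gene that hosted the site. This follows from the definition, since every site lies over 1 kb from both ends of every protein-coding gene. For 14 starts the 250 upstream bases lay wholly inside the site. The 3 printed here were chosen after their values were seen, to show protein-coding and lncRNA starts. Each is given 5′ to 3′ on the strand of its transcript, with CpG dinucleotides in capitals.
GFI1: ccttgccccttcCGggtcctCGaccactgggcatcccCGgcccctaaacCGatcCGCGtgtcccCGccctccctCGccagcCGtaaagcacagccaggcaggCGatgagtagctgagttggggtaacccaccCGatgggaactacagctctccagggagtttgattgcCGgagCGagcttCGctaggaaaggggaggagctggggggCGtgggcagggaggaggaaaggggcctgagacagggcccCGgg
EPHX3: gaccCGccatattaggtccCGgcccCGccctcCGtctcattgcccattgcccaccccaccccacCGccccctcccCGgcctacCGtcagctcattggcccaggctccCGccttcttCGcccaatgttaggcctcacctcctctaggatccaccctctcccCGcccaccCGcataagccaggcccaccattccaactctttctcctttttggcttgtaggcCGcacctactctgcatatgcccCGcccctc
LIMASI: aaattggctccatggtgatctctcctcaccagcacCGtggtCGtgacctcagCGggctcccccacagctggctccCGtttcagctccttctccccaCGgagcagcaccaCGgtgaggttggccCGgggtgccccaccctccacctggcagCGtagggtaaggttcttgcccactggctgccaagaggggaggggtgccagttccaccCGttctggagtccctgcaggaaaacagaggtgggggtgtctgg
The first lies at chr1:92483815-92484064 on the minus strand, inside GFI1, which encodes a transcriptional repressor of blood cell development. It holds 16 CpG, under an H3.3 peak of 1615 bp with a −log10 q of 22.3 and an H4K16ac −log10 q of 10.2. The second lies at chr19:15232969-15233218 on the minus strand, inside EPHX3, which encodes an epoxide hydrolase, and holds 13 CpG and 4 copies of GGGCGG counted on both strands. Its H3.3 −log10 q was 9.07 and its H4K16ac −log10 q 6.14. The third lies at chr19:10283451-10283700 on the minus strand, at the start of the lncRNA LIMASI, inside ICAM1, the gene of an adhesion receptor for leukocytes. It holds 9 CpG and no GGGCGG, with an H3.3 −log10 q of 16.2 and an H4K16ac −log10 q of 10.2.

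The start windows in these sites were GC rich but held fewer CpG than those in eligible H3.3 peaks that overlapped all 5 lists. Across the 47 windows the median GC content was 64.4% and the median number of CpG was 10. The 323 windows in peaks of all 5 lists had medians of 68.0% and 21. The windows in peaks with H4K16ac and H3K79me2 were close to those in the sites, with 64.0% and 10, and those in H3.3-only peaks had 62.8% and 13. The 34961 windows of the whole promoter table had medians of 58.4% and 11, and its 22132 windows of protein-coding genes had 62.0% and 16. The letters GGGCGG or their complement CCGCCC, the core of a GC box, occurred in 46.8% of the windows at starts in the sites (22 of 47, interval 32.1 to 61.9). They occurred in 69.0% of the windows in peaks of all 5 lists (63.7 to 74.0), in 43.8% with H4K16ac and H3K79me2, in 42.9% of those in H3.3-only peaks and in 42.7% of all windows of the table. Among the table's windows of protein-coding genes the share was 53.7%.

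Internal starts listed in the promoter table were rare at the sites. That table covers 15812 of 19974 protein-coding genes, so internal starts that it does not list were not counted. Of all eligible intragenic H3.3 peaks, 11.0% lay within 1 kb of a protein-coding start in the promoter table. For the sites the share was 2.03% (134 of 6589, interval 1.71 to 2.40), against 3.48% of the H3.3 peaks that overlapped no other list, 5.18% of those with H4K16ac and H3K79me2 but no H2AZ, and 56.6% of those with all 5 lists. The sites avoid both H2AZ and H3K79me2 by their definition, and the first of these comparison groups avoids them as well. A protein-coding start lay inside the peak itself at 0.455% of the sites and at 0.477% of the H3.3-only peaks. An annotated lncRNA overlapped 5.80% of the sites, 6.41% of the H3.3-only peaks and 12.9% of the peaks with all 5 lists.

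The sites also covered 14 complete miRNA hairpins, of the 735 in RefSeq that lie inside protein-coding genes and over 1 kb from their ends. miRNAs are short RNAs that pair with messenger RNAs through their seed, bases 2 to 8. The mature forms below, with the seed in capitals, come from the 4 hairpins on the strand opposite to the host gene and from MIR181D, on the host's strand. They were chosen after their values were seen.
miR-199a-3p: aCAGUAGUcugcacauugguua
miR-199b-3p: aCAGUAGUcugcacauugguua
miR-199a-5p: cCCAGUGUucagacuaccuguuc
miR-3154: cAGAAGGGgaguugggagcaga
miR-328-3p: cUGGCCCUcucugcccuuccgu
miR-181d-5p: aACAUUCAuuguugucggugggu
The first and second share the whole mature sequence and the seed CAGUAGU, although their hairpins lie in different genes. MIR199A1 lies at chr19:10817426-10817496 inside DNM2 and MIR199B at chr9:128244721-128244830 inside DNM1. Both hosts encode dynamins, GTPases that cut vesicles from membranes, and both hairpins run against the host. The site in DNM1 had an H3.3 −log10 q of 28.5 and an H4K16ac −log10 q of 20.1, and it also held MIR3154. The site in DNM2 had values of 17.2 and 19.1. MIR328, opposite to ELMO3, a gene of an engulfment and motility protein, lay under a site with values of 18.6 and 17.5. MIR181D lay in NANOS3, a germ cell gene, under a site with values of 11.1 and 4.75. The 14 hairpins had a median GC content of 65.6%, against 49.4% for the 662 hairpins inside genes and in no H3.3 peak. The 9 hairpins under H3.3 peaks with H4K16ac and H3K79me2 had a median of 65.8%, close to that of the sites.

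The sites were H3.3 peaks of middling strength. Their median −log10 q was 8.07, with quartiles of 5.71 and 11.8 and a highest value of 119, and their median fold enrichment was 6.85. Eligible H3.3 peaks that overlapped no other list were weaker, with medians of 6.64 and 6.02-fold. Peaks with H4K16ac and H3K79me2 had medians of 11.7 and 8.47-fold, and peaks with all 5 lists had 24.2 and 12.4-fold. Median widths ran in the same order, 218 bp for H3.3 alone, 285 bp for the sites, 391 bp with H3K79me2 added and 483 bp for all 5 lists. When the eligible peaks were ordered by H3.3 −log10 q and cut at their quartiles, the sites made up 33.5%, 35.6% and 34.6% of the 3 weaker classes and 21.9% of the strongest (20.8 to 23.0). The groups were defined by overlap of at least 1 bp, which a wider peak meets more easily. The part of peak width in these medians and shares was not tested.

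H4K16ac had a similar strength at the sites and in the groups measured with H3K79me2, while peaks with H2AZ but no H3K79me2 were not measured. Its median −log10 q was 8.87 at the sites, with quartiles of 6.14 and 13.0. It was 8.79 at H3.3 peaks that also had H3K79me2 and 9.31 at those with all 5 lists, where H3.3 itself had its highest median. The strengths of both signals were only weakly related across the sites, with a Spearman correlation of 0.117 between their −log10 q and of 0.257 between their widths (n = 6589 sites from the same pair of libraries). The H4K16ac peak was the wider one at 64.2% of the sites, against 45.4% of peaks with H3K79me2 added and 21.5% of peaks with all 5 lists. Median H4K16ac widths in these groups were 357, 364 and 324 bp, beside H3.3 widths of 285, 391 and 483 bp. H4K16ac covered a median of 90.5% of the H3.3 peak at the sites, and covered it wholly at 35.6% of them.

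The summits of both signals lay close together. Each site had to overlap an H4K16ac peak, and median widths were 285 bp for H3.3 and 357 bp for H4K16ac. Short summit distances thus follow in part from the definition, and no expected distance was computed. The median distance between the summits was 66 bp, with quartiles of 24 and 147 bp. They were within 50 bp of each other at 41.8% of the sites and within 150 bp, about the length of DNA around a nucleosome, at 75.6%, while 5.04% of the sites had summits over 500 bp apart. The distance was similar where H3K79me2 was added (median 70 bp) and shorter at peaks of all 5 lists (44 bp). The sites lay over 6186 H4K16ac peaks, and 753 sites shared their H4K16ac peak with another site.

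**Figure D1:**
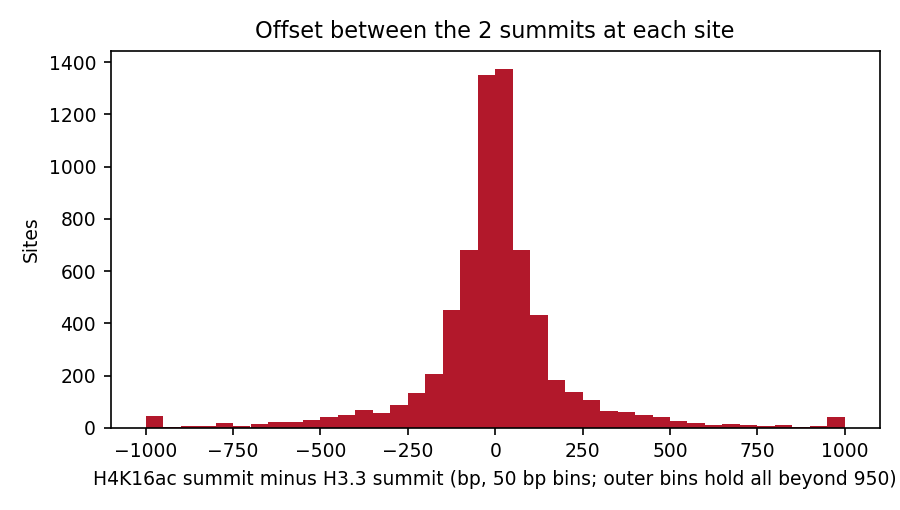
Distance from the H3.3 summit to the H4K16ac summit at each of the 6589 sites, in bins of 50 bp, with the number of sites on the vertical axis and negative values for an H4K16ac summit at a lower coordinate; the outermost bins hold all sites beyond 950 bp. The bars are highest on both sides of 0, and 75.6% of the sites have summits within 150 bp.

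The strongest sites for H3.3 and for H4K16ac were different ones. The highest H3.3 −log10 q, 119 at 46.1-fold, belonged to a peak of 1435 bp in DNAH10, which encodes a dynein heavy chain of cilia, at chr12:123911236-123912670. H4K16ac had a −log10 q of only 6.14 there. Next came sites in DGCR8, a partner of DROSHA in miRNA processing, with an H3.3 −log10 q of 84.2 and an H4K16ac −log10 q of 21.3, and in HOOK2, a dynein adaptor, with 68.8 and 7.71. Sites in MAP3K12, a kinase of injured neurons, and in UPF1, the helicase of nonsense-mediated decay, had H3.3 values of 65.4 and 63.1. The highest H4K16ac −log10 q, 43.9, lay in LLGL1, a cell polarity gene, where H3.3 reached 23.1. The next lay in COQ8A, a gene of coenzyme Q synthesis, with an H4K16ac value of 41.5 and an H3.3 value of 11.6. In MYO15B, an unconventional myosin gene, 1 H4K16ac peak of 4861 bp with a −log10 q of 39.6 ran over 4 sites, which therefore tie in H4K16ac. At 3 of them H3.3 had values of 21.5, 4.43 and 9.22.

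The limits of the definition passed through ordinary peaks. The widest site, 1985 bp in CRTC1, had an H3.3 −log10 q of 15.6, and the peak just beyond the width limit, 2019 bp in SREBF1, had 23.8. The site nearest to a gene end, 1003 bp away in ACTR1A, had 11.9, and the excluded peak at 1000 bp in ESS2 had 16.2. The site nearest to a chromosome end lay 5.00057 Mb from it in GSE1, with 15.9, and the excluded peak at 4.99938 Mb in DYNC1H1 had 5.49. The chromosome limit removed many peaks of the same kind: without it the count was 12510, so 5921 such peaks (47.3%) lay in the outer 5 Mb of chromosomes.

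Along their genes the sites lay towards the far end, away from the start. Of 5608 sites in an oriented gene of at least 10 kb, 73.9% lay in the last 50% of the gene (interval 72.7 to 75.0) and 41.0% in the last 20%. In bins of 10% of the gene the share rose from 2.64% in the first bin to 21.8% in the last. H3.3 peaks that overlapped no other list lay in the last 50% in 55.0% of cases (53.3 to 56.6), those with H4K16ac and H3K79me2 in 44.9% (42.5 to 47.3), and those with all 5 lists in 24.2% (21.6 to 26.9). Absence of H2AZ and H3K79me2, signals of the upstream part of genes, is part of the definition of the sites and of the H3.3-only peaks, and its part in these positions was not tested.

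**Figure D2:**
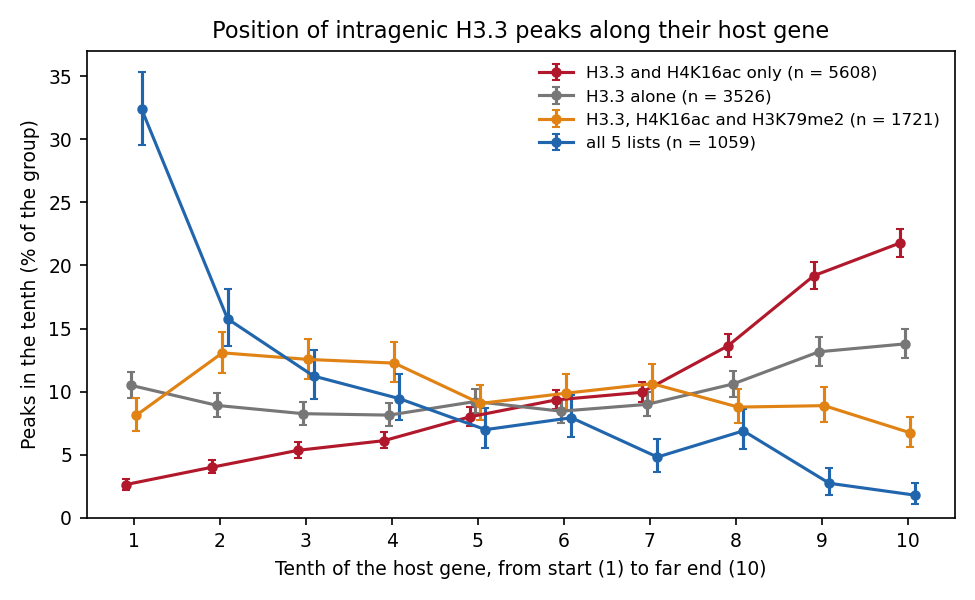
Share of the peaks of each group, in percent, in each of 10 equal bins of the host gene from the start (1) to the far end (10), for 5608 sites, 3526 H3.3-only peaks, 1721 peaks with H4K16ac and H3K79me2, and 1059 peaks of all 5 lists; bars are 95% exact binomial intervals. The sites climb to 21.8% in the last bin, while peaks of all 5 lists are most frequent in the first, at 32.4%.

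The lean towards the far end held in short and long genes. The share of sites in the last 50% was 68.2% in genes of 10 to 30 kb, 76.3% in genes of 30 to 100 kb and 76.8% in longer genes. With 1 mean position per gene, so that genes with many sites count once, 77.5% of 1809 host genes had their mean in the last 50%, against 56.4% of 1937 genes that hosted H3.3-only peaks. Most sites lay in genes that carried H3K79me2 elsewhere: 84.4% of the 5608 had an H3K79me2 peak in the same gene, close to the 81.9% of H3.3-only peaks. Of those, 77.2% lay downstream of every H3K79me2 peak of the gene (76.0 to 78.4), 20.2% lay between such peaks and 2.60% upstream of all of them. For H3.3-only peaks in such genes the downstream share was 64.0% (62.2 to 65.7). Sites beyond the last H3K79me2 peak lay a median of 17.2 kb past it, with quartiles of 7.31 and 42.7 kb.

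The nearest peak of an absent list was usually within the same gene neighbourhood. Median distances were 6788 bp to H2AZ CST, 8003 bp to H2AZ Abcam and 12275 bp to H3K79me2. A peak of any of these 3 lists lay within 5 kb of 55.2% of the sites, within 10 kb of 75.4% and within 50 kb of 98.1%. H3.3-only peaks more often had such a peak close by, with 18.6% within 1 kb of H2AZ CST against 10.8% of the sites, and 14.5% within 1 kb of H3K79me2 against 6.98%. At 50 kb the order was reversed, with 92.5% of H3.3-only peaks and 93.9% of the sites for H2AZ Abcam, and 82.0% and 85.5% for H3K79me2.

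The sites fell in 2387 genes, and a small number of genes held many of them. Among 12638 protein-coding genes of at least 10 kb that lie wholly over 5 Mb from chromosome ends, 2068 (16.4%) hosted at least 1 site and 382 (3.02%) hosted at least 5. Of all host genes, 1105 (46.3%) held a single site, while the 385 with at least 5 held 50.1% of the sites and the 106 with at least 10 held 23.8%. A total of 200 sites lay in more than 1 gene because genes overlap. Both sites in the clustered protocadherin genes are of this kind: 1 lay inside 10 PCDHA genes and 1 inside 22 PCDHG genes.

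KDM4B, which encodes a demethylase of histone H3 lysines 9 and 36, held the most sites, 70 in 184 kb of chromosome 19. MACROD1, a gene of an ADP-ribose hydrolase, held 48. FLRT1, which encodes a leucine-rich membrane protein and lies within MACROD1, held 25, all of them counted for MACROD1 as well. CASZ1, a zinc finger transcription factor gene, held 44 and IQSEC1, a gene of an ARF exchange factor, held 38. LRP5, a WNT co-receptor gene, had 29 sites, the septin gene SEPTIN9 had 26, and GNB1L had 22. Density in the 10 genes with the most sites ranged from 9.84 sites per 100 kb in IQSEC1 to 37.9 in KDM4B. All 10 carried H3.3, H4K16ac and H2AZ CST within 1 kb of an end, and 9 carried H3K79me2 there, FLRT1 being the exception. Such peaks were common in hosts of many sites. Of the 382 hosts of at least 5 sites, 96.6% had H3.3 there, 92.7% H4K16ac, 94.2% H2AZ CST and 77.5% H3K79me2. The shares of all genes of at least 10 kb were 65.1%, 52.7%, 74.6% and 58.9%.

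Among hosts of at least 5 sites, the densest were short genes. In a short gene 5 sites already make a high density, so this order follows in part from that limit. SEMA3G, a semaphorin gene, held 8 sites in 12.1 kb, or 66.3 per 100 kb, and H4K16ac covered 55.1% of it. ATG2A, a lipid transfer gene of autophagy, followed with 14 sites and 61.8 per 100 kb, and AEBP1, a gene of an extracellular matrix protein, with 6 sites and 58.7. LRCH4 had 7 sites and 57.8 per 100 kb, and YJEFN3 had 5 sites and 57.7. AEBP1 and YJEFN3 had no H3K79me2 peak inside the gene.

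The plot of peaks along KDM4B shows the layout of all lists in the gene with the most sites. A site cannot overlap H3K79me2 or H2AZ, so few sites among dense H3K79me2 peaks follow from the definition, and the counts are a description. In its first 50% the gene held 38 H3K79me2 peaks, 57 H3.3 peaks and 53 H4K16ac peaks but 11 sites. In its last 50% it held 5 H3K79me2 peaks, 68 H3.3 peaks and 75 H4K16ac peaks, and 59 sites. The first 30.9 kb of KDM4B (16.7% of the gene) lie nearer than 5 Mb to the chromosome end and could hold no site. Within KDM4B, H3.3 covered 28.7% of the gene, H4K16ac 35.9%, H3K79me2 26.9% and H2AZ CST 0.809%.

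**Figure D3:**
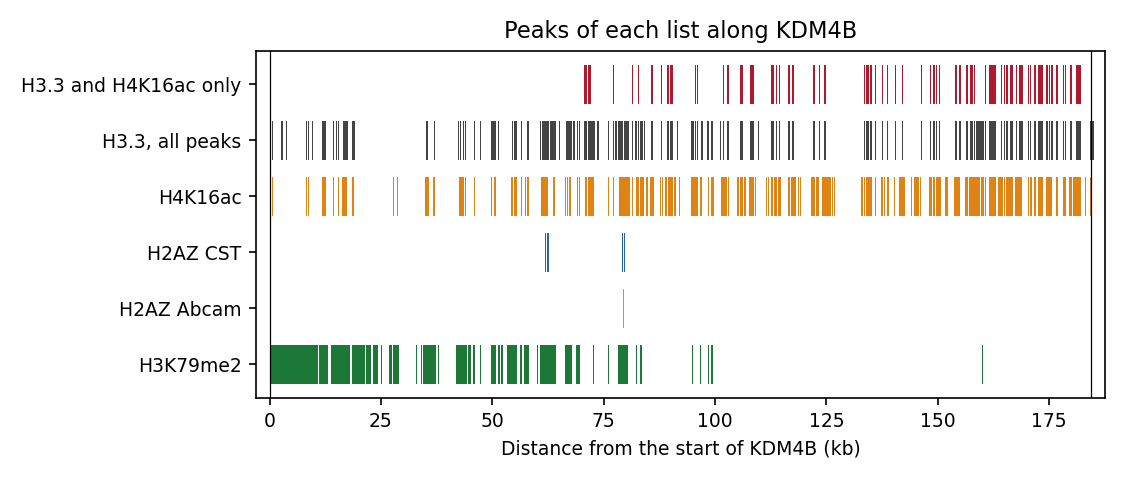
Peaks of each list along KDM4B, as bars at their distance in kb from the gene start, with vertical lines at both gene ends and the 70 sites in the top row. H3K79me2 fills the left part of the gene, where sites, which by definition overlap no H3K79me2 peak, could lie only in its gaps, and 59 of the 70 sites lie in the right 50%.

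Sites were grouped along genes. When sites less than 5 kb apart were joined, 67.9% of the sites (66.8 to 69.1) lay in a run of 2 or more and 30.6% in a run of at least 5. Joined in the same way among themselves, H3.3-only peaks lay in runs of 2 or more in 38.6% of cases and in runs of at least 5 in 3.84%. Peaks with H4K16ac and H3K79me2 did so in 61.9% and 19.2%, and peaks of all 5 lists in 31.4% and 0.810%. These groups differ in size, from 1235 to 6589 peaks, and a larger group has more neighbours. There were 3364 runs, single sites included, of which 269 held at least 5 sites and 53 held at least 10.

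The longest run held 41 sites over 48.9 kb of KDM4B, chr19:5102505-5151368. Their H3.3 −log10 q ranged from 2.58 to 23.1 with a median of 7.84, and their H4K16ac −log10 q from 5.23 to 29.1 with a median of 14.5. H4K16ac covered 55.8% of that stretch and H3.3 37.6%, while no H2AZ peak and 1 H3K79me2 peak fell in it. A run of 26 sites over 29.5 kb of CASZ1, chr1:10639754-10669265, had medians of 8.44 for H3.3 and 8.49 for H4K16ac. TXNRD2, the mitochondrial thioredoxin reductase gene, held 21 sites in 41.7 kb, with H3.3 values up to 41.3. MYRF, a transcription factor gene of myelinating glia, held a run of 17 in 31.8 kb. None of the runs in CASZ1, TXNRD2 and MYRF contained an H3K79me2 peak, but each contained H2AZ. There were 2 H2AZ Abcam peaks in CASZ1, 2 peaks of each H2AZ antibody in TXNRD2 and 1 H2AZ CST peak in MYRF.

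The sites were concentrated on a few chromosomes. Per Mb of protein-coding gene beyond the 5 Mb limit, chromosome 19 held 42.6 sites and chromosome 22 held 38.5, against 5.70 overall. Chromosomes 17, 11 and 16 followed with 16.9, 9.35 and 8.23. The lowest densities were 0.347 on chromosome 18, 0.680 on chromosome 13, 0.730 on chromosome 21 and 0.825 on chromosome X. H3.3-only peaks leaned the same way, with 26.2 per Mb on chromosome 19 and 1.04 on chromosome 18, against 3.63 overall. Peaks with H4K16ac and H3K79me2 did so too, with 20.3 and 0.463 against 1.79 overall. The concentration was thus not particular to the sites. The share of eligible H3.3 peaks that were sites still differed between chromosomes. It was 47.6% on chromosome 22 (657 of 1379, interval 45.0 to 50.3), 33.2% on chromosome 19 (31.6 to 34.9) and 6.67% on chromosome 18 (9 of 135, interval 3.09 to 12.3). HEK293T cells carry an abnormal number of several chromosomes, and the part of copy number in these densities was not tested.

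**Figure D4:**
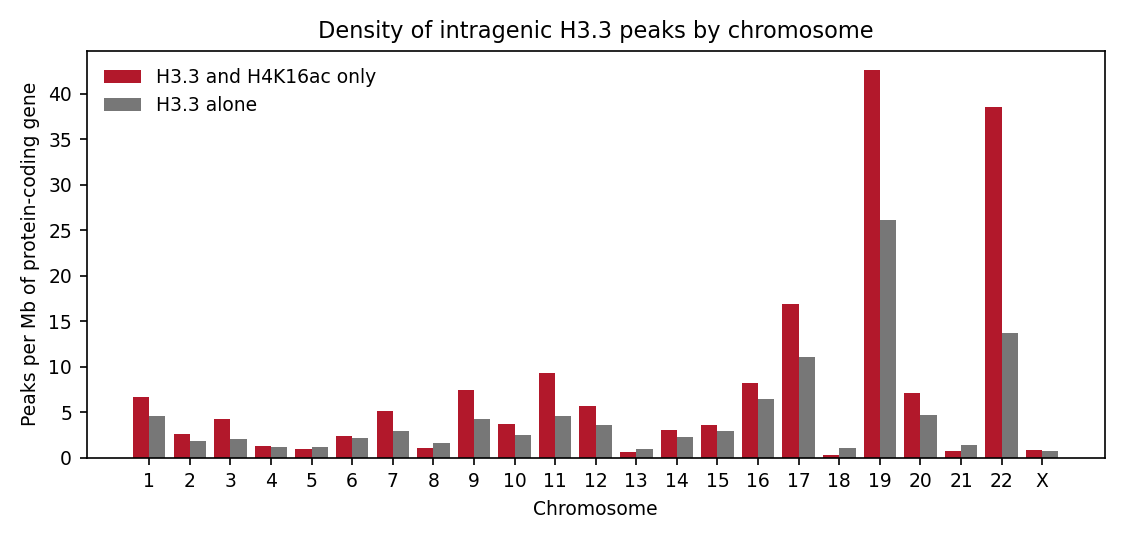
Sites and H3.3-only peaks per Mb of protein-coding gene on each chromosome, counted over 5 Mb from chromosome ends. Chromosomes 19 and 22 stand out for the sites, at 42.6 and 38.5 per Mb, and chromosome 18 is lowest at 0.347.

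Gene length went with the density of sites. Genes of 10 to 30 kb held 22.5 sites per Mb of gene, genes of 30 to 100 kb held 9.60, genes of 100 to 300 kb held 3.56 and longer genes 0.552. The share of genes with at least 1 site changed less, from 18.4% of the shortest class to 11.3% of the longest.

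Host genes carried more of every signal at their ends, which lie outside the stretches where sites were sought. Of all genes of at least 10 kb, 65.1% had an H3.3 peak within 1 kb of an end, 52.7% an H4K16ac peak, 74.6% an H2AZ CST peak, 75.0% an H2AZ Abcam peak and 58.9% an H3K79me2 peak, and 19.1% had none of the 5. Among the 2068 hosts the shares were 87.3% for H3.3, 81.0% for H4K16ac, 87.2% for H2AZ CST, 86.9% for H2AZ Abcam and 66.9% for H3K79me2 (64.8 to 69.0). Among the 10570 genes that hosted no site they were 60.8%, 47.2%, 72.2%, 72.7% and 57.3% (56.4 to 58.3). Only 4.64% of hosts had no list at an end, against 21.9% of the other genes. H3.3 and H4K16ac at the ends come from the same libraries that defined the sites.

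For H3.3 and H4K16ac the difference was wider at the far end of the gene than at the start. Among genes with an annotated strand, 45.8% of 1650 hosts had an H3.3 peak at the far end (43.3 to 48.2), against 6.78% of 8608 other genes (6.26 to 7.34). H4K16ac was there in 47.9% of hosts and 6.13% of other genes. At the start the shares were 79.3% against 60.2% for H3.3 and 67.8% against 45.4% for H4K16ac. For the other lists the gap in percentage points was wider at the start. H2AZ CST was at the start of 85.0% of hosts and 71.6% of other genes, and at the far end of 15.4% and 4.16%. H2AZ Abcam was at the start of 85.3% and 72.4%, and at the far end of 13.1% and 3.89%. H3K79me2 was at the start of 66.7% and 58.2%, and at the far end of 9.70% and 3.50%. A window at a far end can hold the start of a neighbouring gene, and the part of such neighbours was not tested.

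**Figure D5:**
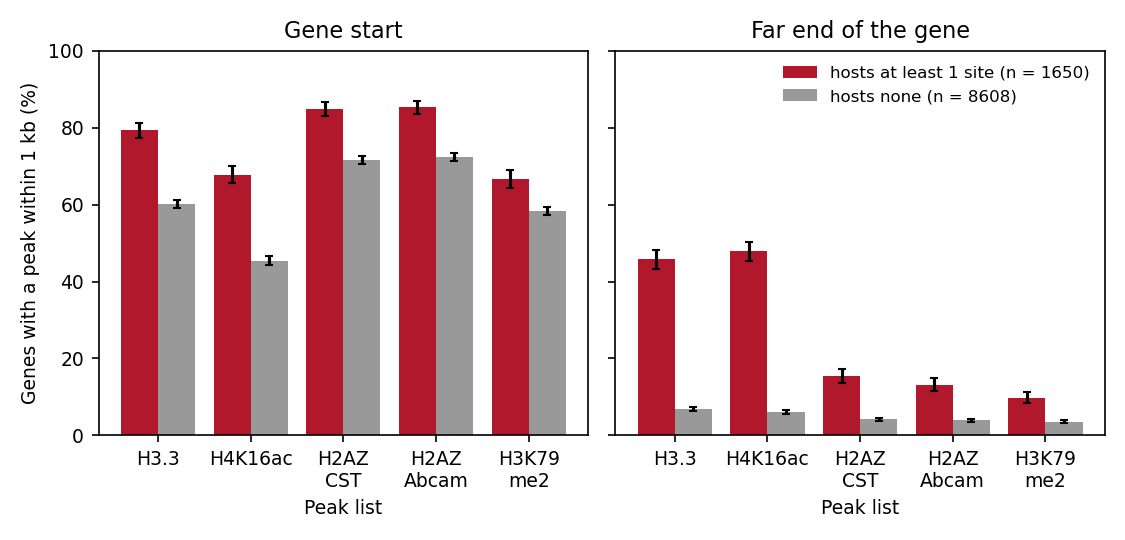
Share of genes of at least 10 kb, in percent, with a peak of each list within 1 kb of the gene start (left) and of the far end (right), for 1650 genes that host a site and 8608 that host none; bars are 95% exact binomial intervals. At the far end H3.3 and H4K16ac reach 45.8% and 47.9% in hosts, against 6.78% and 6.13% in the other genes.

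Gene groups differed in how often they hosted a site, read against 16.4% of all genes of at least 10 kb, whose median was 0 sites. Apart from the protocadherin genes, those of the membrane skeleton and adhesion stood highest, with 17 of 31 as hosts (54.8%, interval 36.0 to 72.7), a median of 1 site per gene and 9 genes with at least 5. The same genes were also often hosts of H3.3-only peaks (15 of 31, 48.4%, against 16.9% of all genes) and of any eligible H3.3 peak (74.2% against 37.7%). ACTN4, the actin cross-linker of podocytes and other cells, and PTPRS, a receptor phosphatase, had 15 sites each. Collagen genes hosted sites in 11 of 34 (32.4%, 17.4 to 50.5), with 10 sites in COL7A1, the collagen of anchoring fibrils, and 4 in COL27A1. Of 37 protocadherin genes, 32 counted as hosts through the 2 shared sites described above.

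Zinc finger genes of the C2H2 type, most of them transcriptional repressors, were rarely hosts. Of 379, 25 held a site (6.60%, interval 4.31 to 9.58), with the most in ZNF362 (6 sites) and ZNF653 (4). On chromosome 19, where many of these genes lie in clusters, 2 of 174 were hosts (1.15%, 0.140 to 4.09) against 276 of 538 other genes (51.3%, 47.0 to 55.6). Any eligible H3.3 peak was also less frequent in this family, in 24.5% of its genes against 37.7% of all. Of 27 genes for splicing factors and snRNPs none held a site (upper bound 12.8%), although 14 held an eligible H3.3 peak of some kind. Ribosomal protein genes gave 1 host of 11, RPS3. Of 291 genes over 500 kb, 32 were hosts (11.0%), led by SORCS2 with 7 sites. GSE1, which is as long but reaches nearer than 5 Mb to a chromosome end and is not among the 291, held 14.

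Genes that write, place or remove these signals were themselves hosts in some cases. In each of these groups the interval of the share of hosts held the 16.4% of all genes. In the KAT8 complexes 1 of 9 genes of at least 10 kb was a host, KANSL1 with 1 site, and the shorter MCRS1 also held 1. Of the 9 H3.3 chaperone genes of at least 10 kb, 1 was a host, CABIN1, whose product joins the HIRA complex, with 6 sites. Of 6 genes of H4K16 deacetylases 1 was a host, SIRT2, with 2. Of 10 genes of the H2A.Z exchange machinery 3 were hosts, among them RUVBL2 with 4 and SRCAP, the ATPase of its complex, with 1. Of 20 genes of DOT1L and elongation factors 5 were hosts, among them MLLT1 with 11 sites and ELL with 9. Remodeller genes included SMARCA4, an ATPase of the BAF complex, with 15 and CHD5 with 4, and histone methyltransferase genes KMT2D with 9 and SETD1B with 7. Among 24 methyltransferase genes 6 were hosts (25.0%, 9.77 to 46.7), and among 31 remodeller genes 8 (25.8%, 11.9 to 44.6).

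Groups tied to tissue gave similar shares. Kidney tubule and podocyte genes hosted sites in 7 of 30 (23.3%), with 5 sites in PAX2, a factor of kidney development. Neuronal genes did so in 7 of 34 (20.6%), with 15 in CAMK2B, a calcium-dependent kinase gene, and 6 in MAPT, which encodes tau. NOTCH, TGF-beta and WNT pathway genes did so in 8 of 35 (22.9%), with 13 in NOTCH3 beside the 29 in LRP5. Potassium channel genes hosted sites in 13 of 70 (18.6%), with 8 in KCNJ4 and 7 in KCNAB2. Kinesin genes did so in 7 of 30 (23.3%), with 9 each in KIF7 and KIF17. Solute carrier genes, at 48 of 301 (15.9%), were close to all genes, with 10 sites in SLC5A10 and 5 in SLC12A4. Imprinted genes gave 5 of 15, with 2 sites in MEST and 1 in RB1. The intervals of these groups hold the share of all genes.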

How the data were processed

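Chromatin immunoprecipitation of 5 antibodies in HEK293T cells was available as 1 deposited peak list per antibody. The labels' protocols describe fixation in 1% formaldehyde (10 min), sonication, library input of 10 ng, 13 PCR cycles and a fragment range of 250 to 450 bp. The submitters' processing notes name hg38 as the build and list MACS2 2.1.0, Bowtie 1.1.2, Trimmomatic 0.33 and bcl2fastq 2.17, and the peak calling settings and the role of the input are not given in these sources. Each deposited list gives each peak's fold enrichment, a linear ratio, its −log10 p-value and −log10 q-value, its summit, and a display score of the authors' caller, which was not used. The smallest −log10 q of the 5 lists lay between 2.00 and 2.06, and weaker enrichment was not listed.

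Overlaps, distances and shares were computed with Python 3.11.15, numpy 2.4.6, pandas 2.3.3 and scipy 1.17.1, and the interval functions were checked on simulated data. Genes came from RefSeq GRCh38.p14, which gives gene ends but no exons, so exonic and intronic positions were not assigned. Genes were oriented by the strand in the RefSeq promoter table (15812 of 19974 protein-coding genes) or else by H2AZ of both antibodies at 1 end only (2106 genes). Where both were at hand they matched for 97.8% of 9620 genes. Shares of genes are over protein-coding genes of at least 10 kb that lie wholly over 5 Mb from chromosome ends. A site in several genes counted for each. It was left out of positions along genes where more than 1 of those genes was oriented and at least 10 kb long. Where a site overlapped several H4K16ac peaks, the one of highest −log10 q was used. Intervals are exact Clopper-Pearson intervals at 95%.

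The definition of the sites and the 22 gene lists were chosen with earlier results of these data known. Named sites are the 5 with the highest H3.3 and the 5 with the highest H4K16ac −log10 q and those nearest each limit. Named genes are the 10 hosts with most sites, the 5 densest with at least 5 sites, the 5 longest runs, up to 2 hosts of each list, and every host among KAT8 complex and H3.3 chaperone genes. Hairpins and start windows were named in addition. A few genes and 1 gene list that the rule would name are not reported here. Alternatives changed the overlap, the peak threshold, the number of peaks and the limits of the definition.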

Additional observations from a re-analysis of the deposited data

How the results depend on the processing

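Over 9 results and 12 alternative settings, 57 of 85 recomputed values stayed within 1.5 times (counts) or within the counting interval (other values). All sites of the stricter overlap settings (5919 and 6034) were among the 6589, and 1932 of the 2169 sites of the 40000 strongest peaks per list were sites before. With those 40000 the count of sites fell to 2169 and that of host genes to 1136, the median H4K16ac −log10 q was 11.9, the summit distance 60 bp, the share in the last 50% of the gene 76.8%, the share in runs 54.8%, H3K79me2 at an end of hosts 72.5% and the share of zinc finger genes with a site 4.22%. Without the chromosome limit there were 12510 sites, with values of 9.72 for H4K16ac, 77 bp for the summits and 76.5% in runs. When H4K16ac had to cover 50% of the H3.3 peak these values were 9.51, 60 bp and 65.7%, and with the H3.3 summit inside H4K16ac 9.02, 58 bp and 66.1%. With no other list within 1 kb, 76.1% lay in the last 50% of the gene and 65.7% in runs. At a −log10 q of at least 5 for H3.3 and H4K16ac the values were 10.1 for H4K16ac, 62 bp, 75.4% in the last 50% and 63.9% in runs; with that threshold in all lists they were 10.2, 62 bp and 64.9% in runs. With 1 mean position per host gene, a setting chosen after seeing the data like those on orientation and on promoter table starts, 77.5% lay in the last 50%. Stricter thresholds leave fewer and stronger peaks by construction. The cause of these shifts was not tested. No paired analysis was possible because each antibody has 1 library, and no library could be left out for the same reason. Depth is unknown, so an absent peak is not evidence of an absent signal.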
